A study of Rattus norvegicus with 30 samples.

Results

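The mitochondrial respiratory chain passes electrons from NADH and succinate through complexes I to IV to oxygen, and complex V, the ATP synthase, uses the proton gradient this builds. Most of its subunits are encoded in the nucleus and are made in nearly every cell, while a few complex IV subunits exist as isoforms that are used mainly in heart and skeletal muscle. Beneath its epithelium the rat oesophagus has a muscle coat of striated fibres.

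The genes described here are all those whose annotated symbol begins with Nduf, Sdha to Sdhd, Uqcr, Cox4 to Cox8 or Atp5, each read from its probe set with the highest mean. There were 86 of them among 14217 genes measured. By name, 36 encode complex I subunits, 6 are complex I assembly factors (the Ndufaf genes), 4 are complex II, 7 complex III, 17 complex IV and 16 complex V genes. Ndufa4 is counted under complex I by its name, although the protein is now known as a complex IV subunit, and Cox6c-ps1 is a pseudogene. The rule took gene names and used no measured difference between groups.

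The samples were 30 Affymetrix arrays of RNA from the oesophageal epithelium of male rats of the Sprague-Dawley strain. Each carries its own number, but the labels do not say that each is a separate rat, so p-values measure the spread between these samples, which may be technical in part. All rats entered the diets at 4 weeks of age and were given 4 weekly intragastric doses of 2 mg/kg NMBA (N-nitrosomethylbenzylamine), which causes oesophageal tumours in rodents, beginning in week 5. The groups were zinc-deficient (ZD) rats given an antimiR against miR-31, a locked nucleic acid oligonucleotide that blocks this microRNA, for 5 weeks (5 arrays) or for 20 weeks (5 arrays), ZD rats without antimiR (5 arrays) and zinc-sufficient (ZS) rats without antimiR (5 arrays). A separate experiment gave ZD miR-31-/- rats (6 arrays) and ZS miR-31-/- rats (4 arrays), made by CRISPR/Cas9 and called knockout rats below. ZD rats ate freely and ZS rats were pair-fed to them. Both antimiR groups were first given 20 mg/kg by tail vein and then 9 doses of 6 mg/kg, and the 20-week group had 20 further doses. Every array is recorded at 15 weeks after the first NMBA dose. The labels name no control oligonucleotide and do not say how many edited lines the knockout rats come from. Beyond those 15 weeks, they do not say at what age the 5-week group was killed. Wild-type littermates were not analysed here.

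The median of an array was 5.81 to 5.93 log2 units in the 10 knockout samples and 5.37 to 5.45 in the 20 unedited ones, so the sets were taken as normalized apart, and genotype and array set cannot be told apart. Levels of the sets are given side by side without a test. The level of 9 squamous epithelium genes was between 12.59 and 12.97 on all 30 arrays. The striated muscle level, taken as the mean log2 value of Ckm (muscle creatine kinase), Acta1 (skeletal actin) and Tnnc2 (fast troponin C), ranged from 5.22 to 12.05 over the unedited arrays and from 9.57 to 12.48 over the knockout arrays. Nothing in the labels says how the epithelium was freed of muscle, and in such bulk samples fewer cells of a type and less RNA per cell cannot be told apart.

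Complex IV held the members that carry the main pattern, the muscle isoforms Cox6a2 and Cox8b. Cox8a, the counterpart of Cox8b, is used in most tissues and its slope on the striated level did not pass. The 250 bases before the annotated starts of Cox6a2, Cox8b and Cox8a are shown here because these genes moved differently with muscle content. The start used for Cox6a2 lies inside the annotated span of its gene (chr1:192218970-192221188), and so does its window. They are RefSeq sequences on GRCr8, given 5′ to 3′ on the strand of the gene, for Cox6a2 chr1:192219717-192219966 (minus strand), for Cox8b chr1:205408274-205408523 (minus strand) and for Cox8a chr1:213833624-213833873 (minus strand). Capitals mark each match to a motif searched on both strands.
Cox6a2: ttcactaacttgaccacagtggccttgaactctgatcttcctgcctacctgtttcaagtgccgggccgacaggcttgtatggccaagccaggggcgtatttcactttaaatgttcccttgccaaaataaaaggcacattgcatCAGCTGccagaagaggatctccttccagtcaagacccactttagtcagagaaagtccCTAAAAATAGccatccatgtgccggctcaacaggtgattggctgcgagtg
Cox8b: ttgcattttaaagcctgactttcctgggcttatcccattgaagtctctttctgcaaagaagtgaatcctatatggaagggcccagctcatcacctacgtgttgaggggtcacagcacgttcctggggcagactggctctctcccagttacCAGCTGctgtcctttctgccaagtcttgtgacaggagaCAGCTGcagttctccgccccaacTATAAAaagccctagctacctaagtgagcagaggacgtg
Cox8a: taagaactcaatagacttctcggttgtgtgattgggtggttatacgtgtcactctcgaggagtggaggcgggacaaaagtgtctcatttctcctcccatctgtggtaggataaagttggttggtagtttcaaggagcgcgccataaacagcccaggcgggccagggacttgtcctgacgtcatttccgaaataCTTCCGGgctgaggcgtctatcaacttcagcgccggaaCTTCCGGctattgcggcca
In Cox6a2 the capitals mark an E-box CAGCTG, the kind of site that myogenic factors bind, and a match to CTA and TAG with 4 bases between them, the core of sites for the muscle factor MEF2. In Cox8b they mark 2 E-boxes CAGCTG and a TATA box TATAAA. In Cox8a they mark 2 matches to the ETS motif CCGGAAG read on the opposite strand, a motif bound by the respiratory chain regulator GABP (NRF-2). The 5 motifs do not share letters at these places.

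Of the 86 members, 78 had a promoter in the RefSeq table, and all 33469 promoters of the same length served as comparison. The ETS motif was in 26.9% of member promoters, against 7.27% of all promoters. The NRF-1 motif, GCGCA and GCGC with 1 base between them, was in 15.4% of member promoters and in 3.75% of all. The MEF2 motif was in 2.56% of member promoters and in 3.41% of all, the E-box in 10.3% and 12%, and the TATA box in 10.3% and 12.9%. The window of Cox6a2 held 5 CpG dinucleotides and that of Cox8b 4, against 15 in Cox8a, a median of 15 over the members and a median of 5 over all promoters. The ETS and NRF-1 motifs both contain CpG, and the part of CpG content in their shares was not tested. The window of Cox7a1, a weakly read muscle isoform whose slope did not pass, also held 4 CpG dinucleotides. It had none of the motifs searched and, like that of Cox6a2, lay inside the annotated span of its gene. These are matches of letters only, and a window without a match says nothing about the factor.

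Within groups, most members varied little. The median SD within the unedited groups was 0.10 log2 units over the 86 members, and 4 had an SD over 0.3: Cox7a1, a heart and muscle isoform of complex IV, Ndufa4l2, a hypoxia-induced relative of Ndufa4, Cox6a2, and Cox8b with the highest at 1.65. The median SD was 0.10 in complexes I, II and III, 0.12 in complex IV, 0.08 in complex V and 0.16 among the assembly factors. Cox7b2, Cox4i2, Cox6c-ps1, Cox6b2 and Cox7a1, all of complex IV by name, had mean values under the array median, where an array reads weakly. The mean level over all members lay between 9.98 and 10.21 on the unedited arrays and between 10.19 and 10.32 on the knockout arrays.

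Members also moved together from array to array. Over deviations from the group means on the 20 unedited arrays, the median Pearson correlation between pairs of members was 0.27, against 0.00 over pairs of all 14217 genes. Among the 60 members with a mean of at least 10 it was 0.37, against 0.02 among 1257 genes of that brightness. By complex the median was 0.71 for complex II, 0.38 for complex V, 0.27 for complex I, 0.22 for complex III, 0.08 for the assembly factors and 0.03 for complex IV. These values describe arrays that share normalization and tissue makeup, and they carry no test.

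Cox6a2 and Cox8b followed the striated muscle level closely, and the other 84 members did not pass the test of that relation. The heart and muscle form of subunit VIa, Cox6a2, read 8.19, 7.51, 5.26, 5.81 and 7.16 in 5-week antimiR rats and 7.26, 5.94, 6.57, 9.37 and 5.10 in 20-week antimiR rats. It read 7.03, 6.51, 8.76, 5.55 and 4.62 in untreated ZD rats, against 5.93, 6.84, 6.26, 4.62 and 8.05 in ZS rats. In knockout rats its lowest, median and highest values were 6.42, 8.12 and 9.38 on ZD, and the 4 values on ZS were 9.13, 8.05, 9.26 and 8.55. Each unedited group thus held both low and high arrays and the groups overlapped throughout. Over the unedited arrays the span was 26.8-fold.

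Cox8b, the muscle form of subunit VIII, read 8.77, 7.43, 4.59, 6.00 and 7.68 in 5-week antimiR rats and 7.41, 5.59, 6.76, 9.80 and 5.42 in 20-week antimiR rats. It read 6.89, 6.64, 9.22, 5.25 and 4.42 in untreated ZD rats, against 6.16, 7.19, 6.43, 4.58 and 8.18 in ZS rats. In knockout rats the lowest, median and highest values were 7.03, 8.34 and 9.24 on ZD, and the ZS values were 9.52, 7.99, 9.52 and 8.36. The arrays high in Cox6a2 were high in Cox8b, with a correlation of their deviations of 0.99 over 20 unedited arrays, and the span was 41.6-fold.

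The striated muscle level itself, array for array in the same order, was 11.06, 10.01, 5.54, 8.50 and 9.62 in 5-week antimiR rats and 9.94, 8.32, 8.97, 12.05 and 6.88 in 20-week antimiR rats. It was 9.85, 9.24, 11.57, 8.06 and 5.22 in untreated ZD rats, against 8.63, 9.90, 8.90, 6.49 and 11.12 in ZS rats. The lowest and highest arrays of each unedited group in this level were also its lowest and highest in Cox8b. In knockout rats the level averaged 10.96 ± 1.11 on ZD (SD, n = 6) and 12.02 ± 0.48 on ZS (SD, n = 4).

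With group as a term, the slope of Cox8b was 0.78 log2 units per log2 unit of striated level in unedited rats (SE 0.051, limma adjusted p = 1.08e-08) and that of Cox6a2 was 0.67 (SE 0.046, adjusted p = 1.55e-08). These were 2 of 86 members, or 2.33%, where 0.978% of the 14214 genes tested passed. In knockout rats the slopes were 1.08 for Cox6a2 (SE 0.041, adjusted p = 9.97e-07) and 0.98 for Cox8b (SE 0.092, adjusted p = 0.000269), again 2 of 86 against 1.03% of all genes. With the smooth muscle level as a further term the Cox8b slope in knockout rats was 0.87 and did not pass (adjusted p = 0.248), and there the smooth and striated levels correlated at 0.87 over 10 arrays. Of 17 further striated genes, 11 passed in unedited and 10 in knockout rats.

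The counterparts used in most tissues had narrow ranges over the same arrays. Cox6a1, the liver form of subunit VIa, stayed between 11.32 and 11.69 on the unedited arrays and between 11.73 and 11.89 on the knockout arrays, and Cox8a between 11.52 and 11.89 and between 11.85 and 12.11. The Pearson correlation with the striated level over 20 unedited arrays was -0.26 for Cox6a1 and -0.01 for Cox8a, against 0.95 for Cox6a2 and 0.96 for Cox8b. Over the 10 knockout arrays it was 0.54 for Cox6a1 and 0.49 for Cox8a, and 0.16 and 0.13 without the 2 arrays farthest from the median. Cox7a1, the heart and muscle form of subunit VIIa, had a mean under the array median, where an array reads weakly. It stayed between 4.81 and 6.34 and correlated at 0.25, with a slope of 0.04 that did not pass. The other unedited slopes lay between -0.04 and 0.04. In knockout rats Ndufa4l2 had a slope of -0.33 that did not pass.

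**Figure D1:**
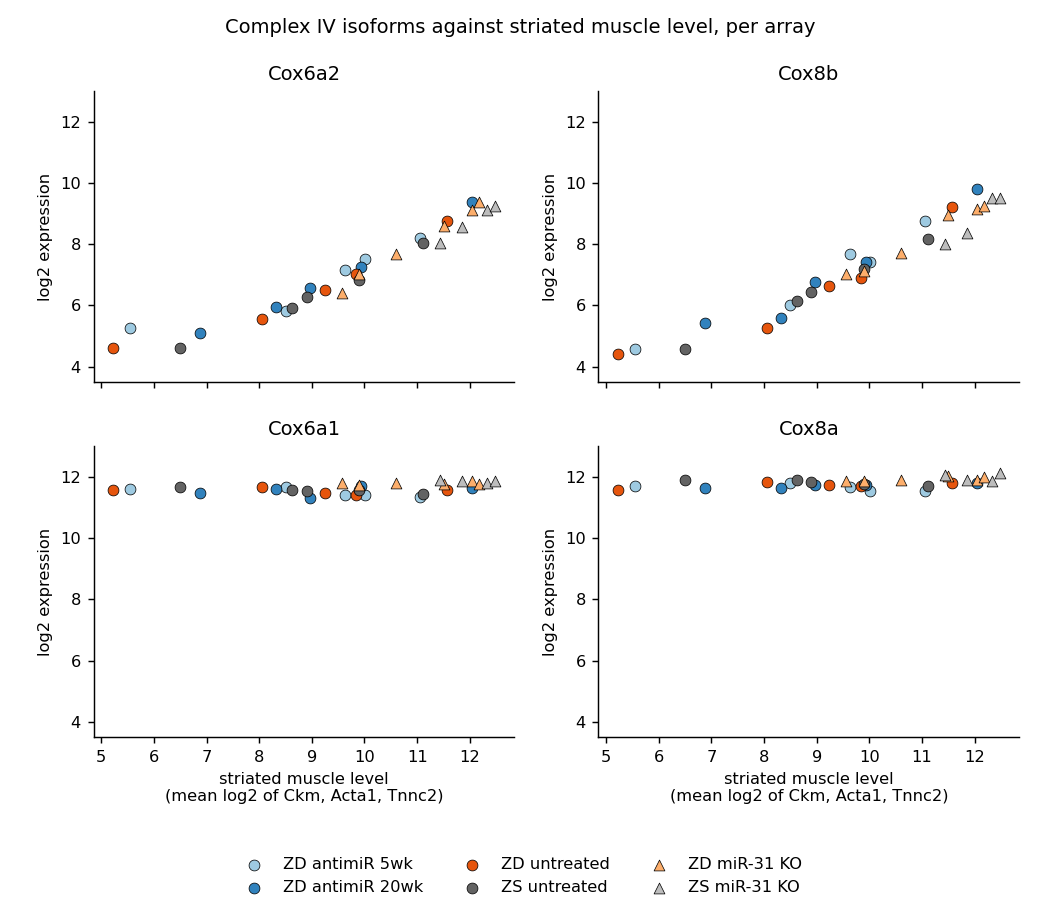
Log2 expression (y axis) of 4 complex IV genes against the striated muscle level (x axis, mean log2 value of Ckm, Acta1 and Tnnc2), 1 point per array, coloured by group, with triangles for knockout arrays. Cox6a2 and Cox8b climb along the axis, and Cox6a1 and Cox8a stay between 11.32 and 12.11.

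At the level of whole complexes, the mean of the 17 complex IV genes correlated with the striated level at 0.93 (Spearman 0.95) over the 20 unedited arrays and at 0.94 without the 2 arrays farthest from the median. Without Cox6a2 and Cox8b it was 0.09. The correlation was 0.10 for complex I, 0.28 for complex II, -0.01 for complex III, 0.28 for complex V and -0.18 for the assembly factors. In the 10 knockout arrays it was 0.94 for complex IV and 0.02 for complex IV without the muscle isoforms, and 0.07 for complex I, 0.35 for complex II, -0.40 for complex III, 0.07 for complex V and -0.37 for the assembly factors. These knockout values depended on the 2 arrays farthest from the median. Without them it was 0.79 for complex IV and -0.53 for complex IV without the muscle isoforms. It was then -0.70 for complex I, 0.20 for complex II, -0.66 for complexes III and V, and -0.52 for the assembly factors. As deviations from the group means, the knockout values were 0.96 for complex IV, -0.09 for complex II, -0.05 for complex III and -0.25 for the assembly factors. These are descriptions over arrays that share normalization, and Cox6a2 and Cox8b were set aside after their slopes were seen.

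**Figure D2:**
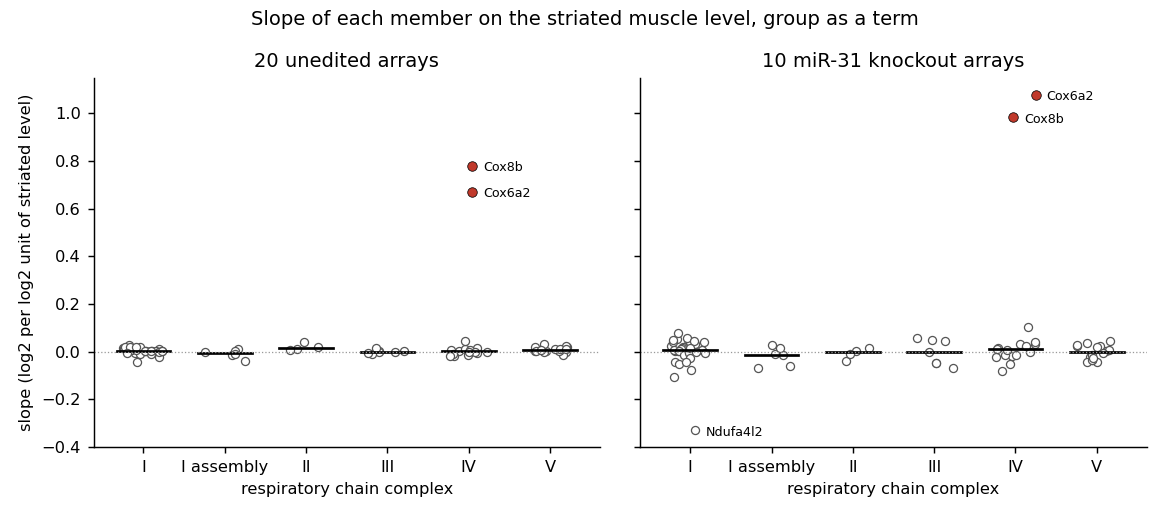
Slope of each of the 86 members on the striated muscle level (y axis, log2 units per log2 unit) by complex (x axis), for 20 unedited arrays (left) and 10 knockout arrays (right). Filled red points passed limma's adjusted p of 0.05, open points did not, and bars are medians. Only Cox6a2 and Cox8b are filled in either panel, at 0.67 and 0.78 on the left and 1.08 and 0.98 on the right.

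The first diet comparison asked what zinc deficiency does in rats with miR-31. Of the 86 members, 7 fell and 0 rose in untreated ZD rats relative to ZS rats, and 79 did not pass. This is 8.14% of members, below the 13.9% of all 14217 genes that passed in either direction. Of all genes 6.95% passed as lower and 6.94% as higher. The members' median change was -0.03 and that of all genes 0.00 log2 units. At an unadjusted p of 0.05, 22 members passed. The 7 were 4 of complex I, 2 of complex II and 1 of complex V, and none came from complexes III or IV.

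Complex II, which oxidises succinate and also belongs to the citric acid cycle, had 2 of its 4 subunits lower. Sdha, its flavoprotein, read 9.66, 9.53, 9.86, 9.80 and 9.68 in ZD rats, against 9.94, 9.89, 9.91, 9.93 and 9.91 in ZS rats. All ZD arrays lay under all ZS arrays, and the change was -0.21 (SE 0.059, adjusted p = 0.0177). Sdhd, a membrane anchor of the complex, read 10.16, 10.13, 10.48, 10.42 and 9.86 in ZD rats, against 10.69, 10.54, 10.56, 10.55 and 10.61 in ZS rats. The groups did not overlap, ZD arrays were more spread, and the change was -0.38 (SE 0.108, adjusted p = 0.0192). A second Sdhd probe set gave -0.37. Sdha did not pass with median centring or without ZD array 12, nor Sdhd without ZD array 15 (adjusted p = 0.0694 without array 12 and 0.0548 without array 15). The other anchor, Sdhc, and the iron-sulfur subunit Sdhb changed by -0.11 and -0.04 and did not pass.

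In complex I, Ndufa5, an accessory subunit of the matrix arm, read 8.71, 8.75, 8.99, 8.87 and 8.80 in ZD rats, against 9.07, 9.22, 9.19, 9.16 and 9.03 in ZS rats. No arrays overlapped and the change was -0.31 (SE 0.064, adjusted p = 0.00225). Ndufa7, also an accessory subunit, fell by 0.19 (adjusted p = 0.0251), though its second probe set, which is dimmer, gave -0.05. Ndufb3, of the membrane arm, fell by 0.22 (adjusted p = 0.0272) and Ndufs7, an iron-sulfur subunit close to the site where ubiquinone is reduced, by 0.25 (adjusted p = 0.0287), both with overlapping groups. Ndufv3, a subunit of the NADH-oxidising end, changed by 0.11 at its chosen probe set and by -0.34 at the other, which passed when each probe set was tested on its own (adjusted p = 0.0158).

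In complex V, Atp5if1, which restrains ATP hydrolysis by the synthase, read 10.82, 10.83, 10.85, 10.78 and 10.93 in ZD rats, against 11.24, 10.98, 11.09, 11.10 and 11.05 in ZS rats. The ZD arrays were all lower and the change was -0.25 (SE 0.059, adjusted p = 0.006). Its 2 dim probe sets gave 0.04 and -0.21, and with the mean of all 3 it did not pass. Groups did not overlap for 7 of the 86 members (8.14%), where 11.4% of all genes did not overlap. Complex IV changes ran from -0.25 to 0.22 and did not pass, and complex III changes from -0.10 to 0.13.

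The paired isoforms of complex IV gave no call on diet in unedited rats. Cox4i1, the main form of subunit IV, averaged 11.97 ± 0.08 in ZD and 12.09 ± 0.04 in ZS rats (SD, n = 5 each), a change of -0.12. Cox4i2, the form known from lung and induced by low oxygen, read near the bottom of the array at 4.02 ± 0.12 in ZD and 3.88 ± 0.11 in ZS rats (SD, n = 5 each). Cox6b2, known as the testis form of subunit VIb, also read low, at 3.48 ± 0.20 in ZD and 3.73 ± 0.26 in ZS rats (SD, n = 5 each). Cox7a2l, which helps hold complexes III and IV together, changed by 0.00. The assembly factor Ndufaf4 had the highest change of all members at 0.32 and did not pass (SE 0.14, adjusted p = 0.131).

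Smooth muscle moved with this comparison. All 10 smooth muscle genes fell, with a median change of -2.33, and the level of 4 of them (Myh11, Cnn1, Tagln and Actg2) averaged 7.99 ± 0.69 in ZD and 10.45 ± 0.59 in ZS rats (SD, n = 5 each) without overlap. With that level as a covariate 0 of 86 members passed in limma (2 at an unadjusted p of 0.05), as against 36 genes higher and 35 lower of all tested. The changes were then -0.36 for Ndufa5, -0.26 for Atp5if1, -0.21 for Sdhd and -0.13 for Sdha. The part of smooth muscle in these changes was not tested. Of 9 squamous epithelium genes 2 also fell, Evpl, a cornified envelope protein (-0.50), and Krt15, a basal keratin (-0.19), and of 3 erythroid genes 1 rose, Hbb, a beta globin (1.62). The striated level averaged 8.79 ± 2.36 in ZD and 9.01 ± 1.71 in ZS rats (SD, n = 5 each), and with it as a covariate 7 members passed. Only Ndufa5 and Atp5if1 passed whichever array was left out, and the fit to the ZD and ZS arrays alone called 3 members.

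Genes around the chain gave a mixed count, to be read beside the 13.9% of all genes that passed (6.94% higher and 6.95% lower). Of 14 citric acid cycle and pyruvate dehydrogenase genes, Idh3a rose by 0.46 and Idh2 fell by 0.46, both isocitrate dehydrogenase genes. Of 38 electron carrier and assembly genes outside the rule, 1 rose, Higd1a (0.40), a hypoxia-induced protein of the inner membrane. Of 13 fatty acid oxidation genes, 1 rose and 2 fell, and of 15 regulators of mitochondrial biogenesis 1 rose (Gabpb1, a GABP subunit, 0.24) and 1 fell (Ppargc1b, a coactivator, -0.46). Of 10 genes of the hypoxic and glycolytic switch 5 rose and 1 fell, Egln3, at -0.91 (SE 0.229, limma adjusted p = 0.00913). Higd1a is in this list too and is counted again among the 5. Among those that rose were Bnip3, a mitophagy receptor, at 1.40 (SE 0.232, adjusted p = 0.000304), Hif1a at 0.83 (SE 0.130, adjusted p = 0.000187) and Vegfa at 0.82 (SE 0.132, adjusted p = 0.000235). Of these 3 only Bnip3 passed with the smooth muscle level as a covariate.

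The antimiR comparisons asked whether blocking miR-31 changes these genes on the ZD diet. No member passed after 5 weeks (0 of 86, 5 at an unadjusted p of 0.05, smallest adjusted p 0.49), where 0% of all genes passed in limma. After 20 weeks 0 of 86 passed (9 at an unadjusted p of 0.05, smallest adjusted p 0.108), where 0.647% of all genes passed. Groups did not overlap for 0 members after 5 weeks, where 1.12% of all genes did not overlap, and for 1 member after 20 weeks (1.16%), where 2.6% did not. Between 20 and 5 weeks 0 of 86 passed (6 at an unadjusted p of 0.05, smallest adjusted p 0.327), where 0.0211% of all genes passed. Both antimiR comparisons use the same untreated ZD arrays. The members' median change was -0.03 after 5 weeks and -0.04 after 20 weeks. In simulated data for the 20-week comparison, a change of 0.3 log2 units was recovered for 27 of 100 genes.

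The widest shift was in Ndufa4l2, which read 6.26, 5.94, 6.12, 5.82 and 5.53 after 5 weeks and 5.83, 5.54, 6.50, 6.16 and 6.98 after 20 weeks, against 7.08, 8.53, 5.74, 5.94 and 6.53 in untreated ZD rats. The groups overlapped, and 1 untreated ZD array stood at 8.53. The changes were -0.83 (SE 0.373, adjusted p = 0.64) and -0.56 (SE 0.373, adjusted p = 0.501). Cox8b changed by 0.41 and 0.51 and Cox7a1 by 0.36 and 0.38 after 5 and 20 weeks, and none of these passed. Smooth muscle genes had median changes of 0.75 and 1.18 with 0 of 10 passing, and their part in these values was not tested.

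The member that did not overlap after 20 weeks was Atp5if1. It read 10.98, 10.93, 10.75, 10.79 and 10.82 after 5 weeks and 11.03, 10.97, 10.99, 11.05 and 11.01 after 20 weeks, against 10.82, 10.83, 10.85, 10.78 and 10.93 in untreated ZD rats. All 20-week arrays lay above all untreated ZD arrays, but the change of 0.17 did not pass (SE 0.059, adjusted p = 0.174), and Atp5if1 was chosen here after its values were seen. Atp5mg, the g subunit of the synthase in the membrane, had the smallest adjusted p after 20 weeks, with a change of -0.22 (SE 0.067, adjusted p = 0.108). Uqcrfs1, the Rieske iron-sulfur protein of complex III, changed by -0.31 (adjusted p = 0.167), with 2 of its 5 arrays at 10.75 and 10.63 and the other 3 between 11.23 and 11.28.

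Complex II did not pass either. Sdha read 9.79, 9.70, 9.77, 9.84 and 9.74 after 5 weeks and 9.91, 9.80, 9.73, 10.01 and 9.83 after 20 weeks, beside the untreated ZD and ZS values given above. Its changes were 0.06 and 0.15 (adjusted p = 0.84 and 0.223). Sdhd changed by -0.08 and 0.04. Of the lists around the chain, 1 gene passed, Vegfa, which fell by 0.55 after 20 weeks (SE 0.132, adjusted p = 0.05 after rounding). It passed in 3 of the 10 arrays left out in turn and did not with the smooth muscle covariate (adjusted p = 0.142).

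**Figure D3:**
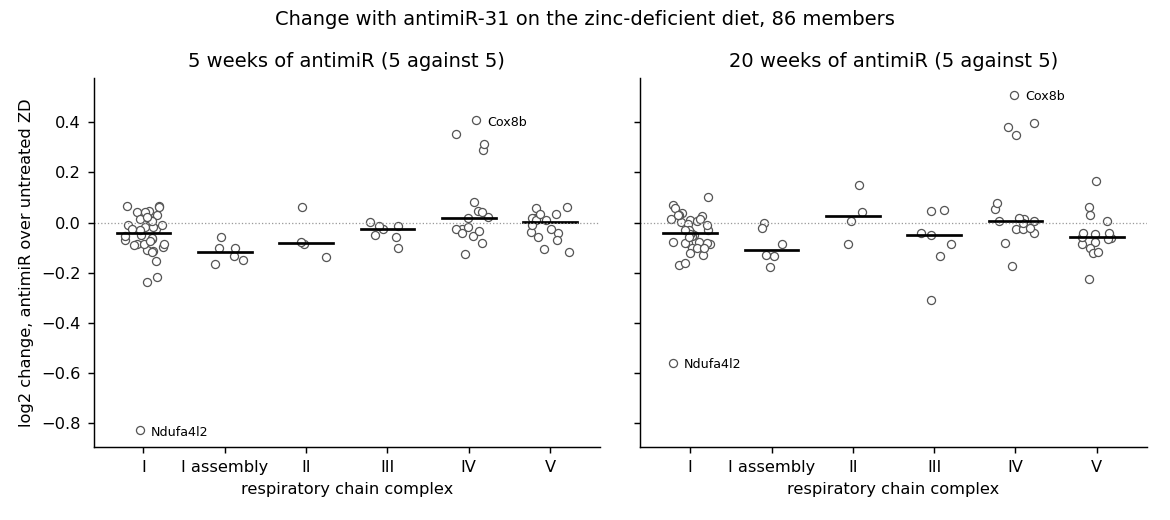
Log2 change of each of the 86 members with antimiR relative to untreated ZD rats (y axis) by complex (x axis), after 5 weeks (left) and 20 weeks (right), with open points for members that did not pass limma's adjusted p of 0.05 and bars at the medians. All points are open, with Ndufa4l2 lowest at -0.83 and -0.56 and Cox8b highest at 0.41 and 0.51.

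In knockout rats the ZD diet gave changes in both directions. Of the 86 members, 9 rose and 11 fell in ZD relative to ZS knockout rats, 23.3% against 21.4% of all genes, so the members' share was near that of all genes. Of all genes 9.47% passed as higher and 12% as lower. The median change was -0.01, and 0.01 for all genes. Complex I had 6 higher and 7 lower of 36, the assembly factors 1 higher of 6 (Ndufaf1), complex II 1 lower of 4, complex III 0 of 7, complex IV 1 higher and 1 lower of 17, and complex V 1 higher and 2 lower of 16. With each array centred on its median, 20 rose and 5 fell, and the median of all genes was then at 0.08. The split between higher and lower is therefore relative to the scaling, while no member that passed turned its sign under the settings tried.

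Sdha again was lower. Its lowest, median and highest values were 10.22, 10.34 and 10.37 in ZD knockout rats, and the ZS knockout rats read 10.81, 10.71, 10.75 and 10.94. All ZD arrays lay under all ZS arrays and the change was -0.49 (SE 0.061, adjusted p = 5.7e-06). Ndufs7 spanned 9.64 to 9.99 with a median of 9.80 on ZD, against 10.18, 10.39, 10.31 and 10.39 on ZS. Its change was -0.52 without overlap (SE 0.078, adjusted p = 4.54e-05). Sdhd changed by 0.01, or by -0.20 at its second probe set, and Sdhb by -0.16, and none of these passed. In complex III, Uqcrc2, a core subunit, changed by 0.00 at its chosen probe set and by -0.63 at a dimmer one, which passed when each probe set was tested alone (adjusted p = 0.0235). Ndufv3 likewise changed by -0.02 at its chosen probe set and by -0.30 at the dimmer one (adjusted p = 0.0219 when tested alone).

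The alpha and beta subunits, which form the catalytic head of the ATP synthase, were both lower. Atp5f1a, the alpha subunit, had a lowest, median and highest value of 11.31, 11.47 and 11.48 on ZD, against 11.66, 11.85, 11.72 and 11.94 on ZS, a change of -0.36 without overlap (SE 0.061, adjusted p = 0.000174). Atp5f1b, the beta subunit, averaged 12.29 ± 0.09 on ZD (SD, n = 6) and 12.53 ± 0.02 on ZS (SD, n = 4), a change of -0.25 (adjusted p = 0.00696). Atp5if1 went the other way, with a lowest, median and highest value of 10.98, 11.11 and 11.17 on ZD, against 10.95, 10.98, 10.68 and 10.83 on ZS. At 10.98 the highest ZS array met the lowest ZD array, and the change was 0.23 (SE 0.060, adjusted p = 0.00765). The 2 other Atp5if1 probe sets, both dim, gave 0.49 and 0.19. Atp5if1 did not pass without ZS array 32, nor with the leukocyte level as a covariate (adjusted p = 0.0757).

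Among complex I subunits that fell were Ndufa8, of the membrane arm (-0.34, SE 0.061, adjusted p = 0.000368), and, named after their values were seen, Ndufv1, which binds NADH (-0.29), Ndufa5 (-0.26), Ndufab1, the mitochondrial acyl carrier protein (-0.26), Ndufb11 (-0.26) and Ndufb3 (-0.20). Among those that rose, Ndufc1, a small membrane arm subunit, had a lowest, median and highest value of 10.50, 10.63 and 10.92 on ZD, against 10.07, 10.21, 10.18 and 10.42 on ZS. The groups did not overlap, and the change was 0.44 (SE 0.085, adjusted p = 0.000677). Ndufb5, also of the membrane arm, rose by 0.26 (SE 0.050, adjusted p = 0.000702). Of the others, again named after their values were seen, Ndufc2 rose by 0.33, Ndufb9 by 0.24, Ndufa6 by 0.24 and Ndufa4 by 0.21. Of the 13 complex I members that passed, 10 passed whichever array was left out.

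Complex IV gave the highest change, in Cox5a, a nuclear-encoded subunit that faces the matrix. It had a lowest, median and highest value of 7.55, 7.61 and 8.05 in ZD knockout rats, against 6.80, 6.92, 6.37 and 7.0 in ZS knockout rats. The groups were far apart and the change was 0.92 (SE 0.105, adjusted p = 1.6e-06). A brighter probe set, annotated to Cox5a and an uncharacterised locus and so not used, gave 0.15 (adjusted p = 0.0409 with each probe set tested alone), so the probe sets disagree in size. Cox6b1, which sits on the intermembrane side, fell by 0.15 (adjusted p = 0.0457). Cox6a2 changed by -0.71 and Cox8b by -0.64 without passing, beside a median change of -1.05 in Ckm, Acta1 and Tnnc2, of which 0 of 3 passed. Of 17 further striated genes 1 passed as lower, Myh1 (-0.41), and 0 as higher.

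**Figure D4:**
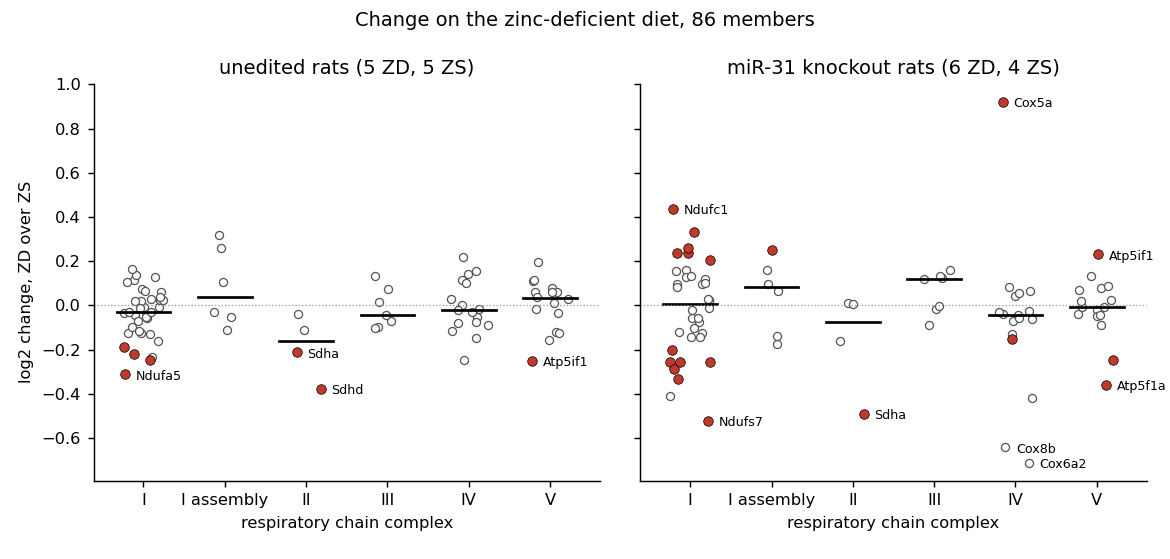
Log2 change of each of the 86 members on the ZD diet relative to the ZS diet (y axis) by complex (x axis), in unedited rats (left) and knockout rats (right). Filled red points passed limma's adjusted p of 0.05, open points did not, and bars are medians. On the left the 7 filled points all lie below 0, and on the right 9 lie above and 11 below, with Cox5a at 0.92.

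Groups did not overlap for 20 of 86 members (23.3%), where 14.3% of all genes did not overlap. Other tissue genes moved with this comparison too. Of 5 leukocyte genes 3 fell (median -0.88), with their level at 7.84 ± 0.20 on ZD (SD, n = 6) and 8.55 ± 0.84 on ZS (SD, n = 4), where ZS array 32 stood at 9.75. Of 10 smooth muscle genes 4 fell (median -1.25). With the leukocyte level as a covariate, chosen after seeing the data, 5 members rose and 10 fell, and with the smooth muscle level 8 rose and 9 fell. The fit to the knockout arrays alone called 13 members, 5 higher and 8 lower. The part of these cells in the changes was not tested.

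Around the chain, 3 of 14 citric acid cycle and pyruvate dehydrogenase genes fell, Idh3b (-0.28), Pdha1 (-0.24) and Cs, citrate synthase (-0.21). The counts given here stand beside a share of 21.4% over all genes, 9.47% higher and 12% lower. Pdha1 and Cs lay close to the limit (limma adjusted p = 0.0479 and 0.048). Dropping single arrays cost each of them its call for 8 of 10 arrays, while Idh3b kept its call throughout. Of 38 carrier and assembly genes 5 rose and 3 fell, with Coq7, an enzyme of ubiquinone synthesis, at 0.33, Etfa, which carries electrons from fatty acid oxidation, at 0.29, and Sdhaf1, an assembly factor of complex II, at -0.35. Of 15 biogenesis regulators 2 rose and 2 fell, among them Polrmt, the mitochondrial RNA polymerase (-0.39), and Ppargc1a, the coactivator PGC-1alpha (-0.66). Of 13 fatty acid oxidation genes 2 rose (Cpt2 by 0.46, Hadhb by 0.28), and of 10 genes of the hypoxic switch 1 fell (Lonp1, a matrix protease, by 0.27).

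The diet comparisons share no arrays. Of the 7 members that fell in unedited rats, 4 also fell in knockout rats, Ndufa5, Ndufb3, Ndufs7 and Sdha, which is 57.1% of the 7 and 36.4% of the 11. Over all genes, 251 fell in both, 25.4% of the 988 lower in unedited rats and 14.7% of the 1702 lower in knockout rats. Atp5if1 fell in unedited and rose in knockout rats, as 1 of 7 members (14.3%), where 3.54% of the 988 genes did.

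The difference of the diet effects, knockout minus unedited, passed for 9 of 86 members (10.5%), where 8.39% of all genes passed. Of these, 5 were positive and 4 negative, and 7 and 1 with median centring. Of all genes 3.78% passed as positive and 4.61% as negative. Atp5if1 had a difference of 0.48 (SE 0.085, adjusted p = 0.00142), and its 2 dim probe sets gave 0.45 and 0.40, both passing when tested alone. Cox5a had 0.70 (SE 0.147, adjusted p = 0.00462), but the brighter probe set annotated to Cox5a and a further locus changed by 0.15 in both knockout and unedited rats and gave a difference of -0.0028 (SE 0.0699). The Cox5a difference therefore rests on 1 of 2 probe sets. Ndufa4 had 0.33 (SE 0.078, adjusted p = 0.0105). Ndufa8 had -0.41 (SE 0.085, adjusted p = 0.00457) and Atp5f1a -0.33 (SE 0.085, adjusted p = 0.0197). Sdha fell in both and its difference was -0.28 (SE 0.085, adjusted p = 0.0413). Genotype and array set cannot be told apart in this difference, and with the leukocyte level as a covariate, chosen after seeing the data, 3 of the 86 members passed.

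**Figure D5:**
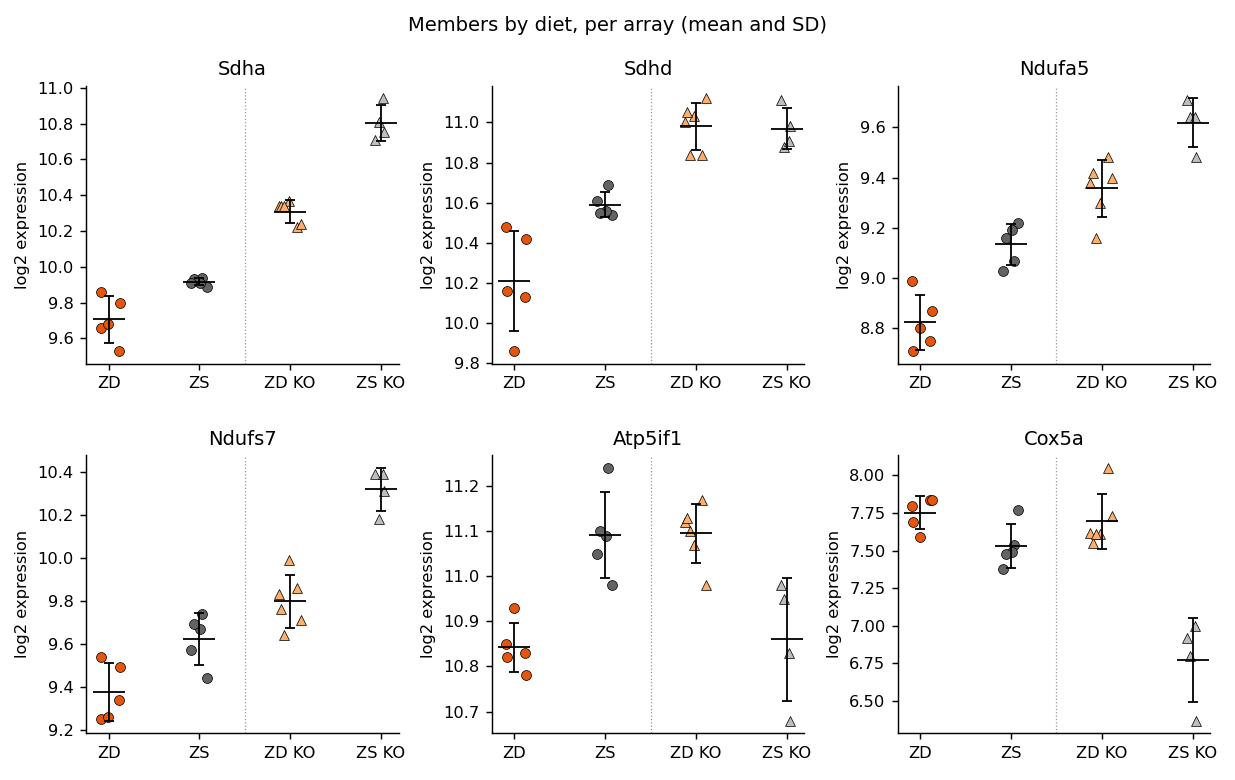
Log2 expression (y axis) of 6 members on each array in untreated ZD and ZS rats and in ZD and ZS knockout rats (x axis), with horizontal marks at the mean and bars of 1 SD (n = 5, 5, 6 and 4). Sdha, Ndufa5 and Ndufs7 are lower on ZD on both sides of the dotted line, and Atp5if1 is lower on ZD on the left and higher on the right.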

How the data were processed

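The authors deposited log2 intensities summarised by RMA in Expression Console of Affymetrix, per the submitters' processing notes, whose versions are not given in the sources used here. Of 31099 probe sets on each array, 57 were controls, 20826 had 1 gene symbol, 436 had several and 9780 had none used. Symbols came from the platform annotation, and 20758 of those with 1 symbol matched RefSeq by gene ID. Per gene the probe set with the highest mean was kept, which gave 14217 genes, and 9 members had over 1.

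Linear models were fitted with limma 3.58.1 in R 4.3.3 to all 30 arrays with 1 coefficient per group, moderated tests and Benjamini-Hochberg adjustment over all genes at 0.05. The slope on the striated muscle level was tested with group as a term, in 20 unedited and in 10 knockout arrays apart, over 14214 genes. Members and gene lists were chosen with earlier results of these data known. Named were the tissue isoforms and their partners, the Sdh genes, up to 4 members per comparison and complex with the smallest adjusted p among those that passed, the 3 largest changes per comparison, and up to 3 genes of each other list. Precision is limited by the number of arrays.

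The alternatives were quantile normalization, array weights, median centring, a trended and robust eBayes step, omission of the dimmest 30% of genes, fewer arrays in the fit, the mean of all probe sets, muscle levels as covariates, other forms of the striated level and leaving out each array. Single probe sets and a leukocyte covariate were added after seeing the data. In simulated data for untreated ZD against ZS over 14217 genes, a change of 1 log2 unit was recovered for 90 of 100 genes and one of 0.3 for 17 of 100. For ZD against ZS knockout rats it was 92 and 36.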

Additional observations from a re-analysis of the deposited data

Results flagged for a closer look

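In 192 groups of 32 named members, 13 values lay far from the rest of their group. Chance alone marks about 1 in 20 groups. In untreated ZD rats array 15 was low in Ndufab1 (10.77) and Ndufaf4 (8.74), and it was also the array with the lowest striated level. In ZS rats array 16 was low in Ndufaf4 (8.59), and array 20 was low in Uqcrfs1 (10.93) and Cox6b1 (11.21) and high in Cox4i2 (4.06). Among ZD knockout rats array 35 was low in Sdhb (10.06) and Uqcrfs1 (11.14) and high in Cox5a (8.05). In 5-week antimiR rats Cox6b1 was low on array 6 (11.08) and Cox6b2 high on array 9 (4.20). In 20-week antimiR rats Cox7a1 was high on array 1 (6.34) and Atp5f1b high on array 4 (12.06), the array with the highest striated level of its group.

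The diet effect differed between knockout and unedited rats, as tested in limma, for 9 members. The differences were 0.48 for Atp5if1, 0.33 for Ndufa4, 0.29 for Ndufa7, 0.24 for Ndufb5, -0.28 for Sdha, -0.33 for Atp5f1a, -0.37 for Ndufab1 and -0.41 for Ndufa8. For Cox5a the difference was 0.70 at the chosen probe set and -0.0028 at a brighter one annotated to Cox5a and a further locus. At the chosen probe sets 5 passed whichever array was left out: Atp5f1a, Atp5if1, Cox5a, Ndufa4 and Ndufa8.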

How the results depend on the processing

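Single probe sets aside, no gene that passed turned its direction under an alternative in which it was refitted. A dim probe set of Atp5if1 in unedited rats, and the brighter one annotated to Cox5a for the difference of diet effects, gave values near 0 of the other sign. The median change over members, which is close to 0, changed sign in several alternatives. The count of members called for untreated ZD against ZS rats was 7. It was 0 with the smooth muscle covariate (2 at an unadjusted p of 0.05 in limma), 3 with only the groups compared, and 4 to 10 when leaving out 1 array, with 4 without ZD array 12 or without ZS array 16. For ZD against ZS knockout rats it was 20, and 13 with only the groups compared or only knockout arrays, and 17 to 20 leaving out 1 array. The difference of diet effects called 9, and 3 with the leukocyte covariate, and 6 to 9 leaving out 1 array. The knockout slope called 2, and 1 with the smooth muscle level as a further term. Among values of single genes, 265 no longer passed under an alternative and 7 passed only there. The antimiR comparisons called 0 under each alternative. The causes of these changes were not tested. Of the members called for diet, 2 of 7 in unedited and 14 of 20 in knockout rats passed whichever array was left out.

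The median change over members was -0.03 for untreated ZD against ZS and 0.02 with the smooth muscle covariate. It was -0.01 for the knockout diet comparison and 0.07 with median centring. For the difference of diet effects it was 0.01 and ran from -0.04 to 0.06, and for 20 against 5 weeks of antimiR it was 0.01 and ran from -0.01 to 0.02. No paired analysis was possible because each array number occurs once. The number of arrays limits precision: in simulated data a change of 0.3 was recovered for 3 of 100 genes in the difference of diet effects, and a knockout slope of 0.3 for 14 of 100.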

Other observations

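The difference of the diet effects, knockout minus unedited, passed for 4 of the 10 genes of the hypoxic and glycolytic switch, all negative, where 8.39% of all genes passed and 4.61% as negative. The values over the 10 ran from -1.55 to 0.82. It was -1.55 for Bnip3 (SE 0.331, limma adjusted p = 0.00559), -1.05 for Vegfa (SE 0.189, adjusted p = 0.00178) and -0.80 for Hif1a (SE 0.185, adjusted p = 0.00949). With the leukocyte level as a covariate, chosen after seeing the data, Vegfa passed and Bnip3 and Hif1a did not. Over all alternatives the difference ran from -1.76 to -1.23 for Bnip3 and from -0.89 to -0.67 for Hif1a. Coq7 of ubiquinone synthesis had a difference of 0.54 (SE 0.110, adjusted p = 0.00404) and Hadhb of fatty acid oxidation 0.48 (SE 0.110, adjusted p = 0.00833). Of 5 leukocyte genes 3 had a negative difference that passed (median -1.16), and their part in these values was not tested. Genotype and array set cannot be told apart here.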
